A study of Mus musculus with 4 samples.

Results

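Interferon-stimulated effector genes are the genes that carry out the antiviral work of an interferon response. 49 of them were taken, by gene symbol, from the 49585 genes of an RNA-seq experiment on 4T1–HM and 4T1–LM cells. Each of these lines grew out of 1 cell of the murine triple-negative breast cancer line 4T1, 4T1–HM being the highly and 4T1–LM the lowly metastatic of the 2 clones. Both were cultured for 48 h either with DMSO, the solvent, giving the libraries HM_Ctrl and LM_Ctrl, or with 50 μmol/L of deferasirox (DFX), an oral iron chelator, giving HM_DFX and LM_DFX. There was 1 library per condition, so that no difference below has a replicate check, no p-value is given, and a difference between the clones may be one between these 2 isolates. The methods call experiments replicated in general terms, and whether a library pools several cultures is not stated. The values are FPKM, fragments (read pairs) per unit of gene length and of sequencing depth, and therefore allow levels to be compared between genes.

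Type I interferons are secreted by cells that sense viral or misplaced nucleic acid. They bind the receptor IFNAR1–IFNAR2, whose kinases JAK1 and TYK2 activate a complex with STAT2 and IRF9 that binds the interferon-stimulated response element (ISRE) in the promoters of its targets. The targets bind or degrade viral RNA, modify proteins with ISG15 or ADP-ribose, or restrict viruses at membranes, and many are also expressed in tumor cells.

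Genes that reached an FPKM of 1 in any library were called expressed, which held for 12669 genes and for 47 of the 49 members. Ifitm1 and Epsti1 stayed under 1 in every library. Fold changes are log2 of the ratio of FPKM + 1, on which weakly expressed genes show less than their full change, and the terms higher and lower are used from 2-fold on. Fragment numbers were recovered from the FPKM, with totals from 14363067 in HM_DFX to 21883854 in LM_DFX. Where a ratio of FPKM is given, it has no pseudocount, and the range behind it is its exact (Clopper–Pearson) 95% binomial interval, which covers counting error and not the variation between cultures.

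DFX raised the members in both clones, and more so in 4T1–LM. In 4T1–HM, 30 of the 47 expressed members were higher in HM_DFX than in HM_Ctrl and 0 were lower, where 6.93% of all expressed genes were higher and 12.4% were lower. In 4T1–LM, 43 were higher in LM_DFX than in LM_Ctrl and 0 were lower, against 7.09% and 8.72% of all expressed genes. The median log2 fold change of the members was 1.53 in 4T1–HM and 3.00 in 4T1–LM, while that of all expressed genes was −0.10 and −0.04. Without drug the median log2 difference of the members between the clones was 0.06, with 26 members above 0 and 21 below. With median-ratio scaling, which moved the median of all genes in 4T1–HM from −0.10 to 0, the split of all genes went from 878 higher and 1568 lower to 1118 and 1276, and that of the members from 30 and 0 to 33 and 0.

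The members together made up a summed FPKM of 613 in HM_Ctrl, 598 in LM_Ctrl, 1430 in HM_DFX and 2741 in LM_DFX. Their median FPKM was 2.42, 2.36, 13.7 and 32.6 in the same order, and 12, 12, 31 and 40 members reached an FPKM of 10. Ifitm3 alone made up 304, 312, 288 and 554 of the sums, in that order. The control libraries lay close together, HM_DFX lay above both, and LM_DFX lay highest. Of the 20 genes with the largest rise among all expressed genes, 6 were members in 4T1–HM and 11 in 4T1–LM. Of the 100 largest rises, 15 and 29 were members. A rise of at least 8-fold was seen for 6 members in 4T1–HM and for 22 in 4T1–LM, out of 21 and 58 expressed genes in all. For 9 members (Ifi44, Iigp1, Mx1, Mx2, Oas2, Oas3, Phf11d, Rsad2 and Usp18) an FPKM of 1 was reached only with DFX, so that they could pass the filter only by being higher there. Of these, Rsad2, Usp18 and Mx2 are among the 8-fold rises in both clones, and Oas2, Oas3 and Ifi44 in 4T1–LM. The counts of 8-fold and largest rises were not repeated without the 9. Among the other 38, which reached it in a control library, 24 were higher in 4T1–HM and 34 in 4T1–LM, against 666 and 772 of the 12083 genes that did so. The median log2 fold change of these 38 was 1.53 in 4T1–HM and 2.46 in 4T1–LM, so that the gap between the clones was narrower. For the 12083 genes it was −0.14 and −0.07.

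**Figure D1:**
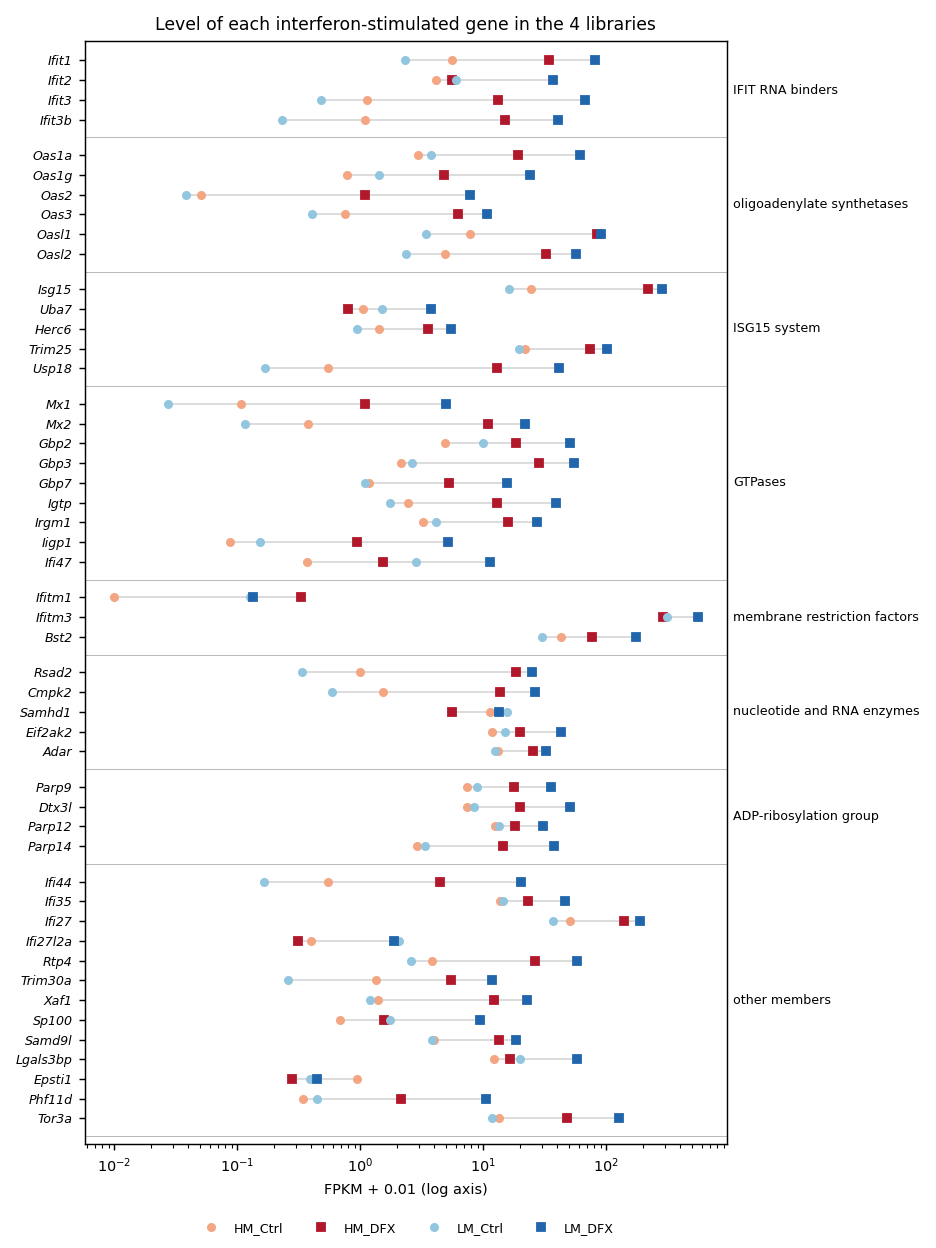
FPKM of the 49 members in the 4 libraries, grouped by role, on a log axis after adding 0.01 (so that a value of 0 sits at 0.01); circles are the control libraries, squares the DFX libraries, and each point is 1 library. LM_DFX is the rightmost point for most members, as for Ifit3 at 67.6 against 0.474 in LM_Ctrl, while Ifitm3 starts at about 300 in both controls (304 in HM_Ctrl and 312 in LM_Ctrl).

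The promoters are shown because most of the members rose. RefSeq promoter windows of build GRCm38.p6, from 250 bases before to 50 bases after a start site, were found for 38 of the 49 members. The ISRE core was searched on both strands as the letters GAAA, any 2 bases, and GAAA again. It was present for 17 of the 38 members (44.7%), compared with 3.99% of the 27025 genes in the table. By windows, 18 of 44 (40.9%) held it, against 3.44% of 32851. The gamma-activated site, the element of the interferon gamma response, was searched as TTCNNNGAA on both strands and was present for 10 members (26.3%) against 9.55% of genes. In Ifitm3 and Bst2 a match of one motif overlapped a match of the other. For 7 members the 250 bases before the start are printed here in gene direction, with the ISRE letters of either strand in capitals (on the opposite strand they read TTTC, 2 bases, TTTC). The first 5 are members that rose strongly and hold the letters. Oasl1 rose as strongly and Samhd1 did not rise, and neither has the letters in this window.
Isg15: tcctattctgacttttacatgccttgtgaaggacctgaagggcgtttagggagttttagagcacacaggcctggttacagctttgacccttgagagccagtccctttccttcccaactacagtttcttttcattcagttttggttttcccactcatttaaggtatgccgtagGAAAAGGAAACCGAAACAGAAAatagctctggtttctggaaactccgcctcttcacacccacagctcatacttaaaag
Rsad2: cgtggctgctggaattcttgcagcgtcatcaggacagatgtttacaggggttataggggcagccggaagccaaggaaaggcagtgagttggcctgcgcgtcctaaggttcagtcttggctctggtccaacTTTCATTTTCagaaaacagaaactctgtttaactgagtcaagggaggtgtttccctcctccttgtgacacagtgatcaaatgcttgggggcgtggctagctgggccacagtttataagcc
Ifit3: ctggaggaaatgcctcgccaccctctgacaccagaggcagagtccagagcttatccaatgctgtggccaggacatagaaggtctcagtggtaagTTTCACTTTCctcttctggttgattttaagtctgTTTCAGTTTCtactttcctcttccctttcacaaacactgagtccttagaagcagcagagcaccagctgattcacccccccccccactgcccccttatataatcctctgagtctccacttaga
Ifit3b: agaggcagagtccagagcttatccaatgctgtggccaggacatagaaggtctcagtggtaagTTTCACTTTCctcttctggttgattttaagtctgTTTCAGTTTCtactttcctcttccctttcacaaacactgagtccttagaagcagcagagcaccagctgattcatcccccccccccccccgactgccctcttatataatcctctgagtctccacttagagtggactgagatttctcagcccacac
Gbp3: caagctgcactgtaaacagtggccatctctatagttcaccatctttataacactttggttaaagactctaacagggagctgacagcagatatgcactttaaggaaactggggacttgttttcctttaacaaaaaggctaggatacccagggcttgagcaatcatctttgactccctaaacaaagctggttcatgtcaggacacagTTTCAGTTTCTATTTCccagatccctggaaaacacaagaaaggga
Oasl1: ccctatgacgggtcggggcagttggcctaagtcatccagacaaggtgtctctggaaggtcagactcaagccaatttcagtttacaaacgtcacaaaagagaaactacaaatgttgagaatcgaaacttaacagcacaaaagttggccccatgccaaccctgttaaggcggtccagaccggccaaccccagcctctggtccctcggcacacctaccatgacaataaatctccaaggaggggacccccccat
Samhd1: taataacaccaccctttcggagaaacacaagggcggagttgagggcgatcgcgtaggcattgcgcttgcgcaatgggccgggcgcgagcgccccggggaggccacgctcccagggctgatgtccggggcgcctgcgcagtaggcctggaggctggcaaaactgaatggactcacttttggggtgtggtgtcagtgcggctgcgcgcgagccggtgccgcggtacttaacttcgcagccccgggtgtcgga
These stretches lie at chr4:156200819-156201068 (Isg15, minus strand), chr12:26456453-26456702 (Rsad2, minus strand), chr19:34583279-34583528 (Ifit3, plus strand), chr19:34607707-34607956 (Ifit3b, plus strand), chr3:142559794-142560043 (Gbp3, the first of its windows, plus strand), chr5:114922990-114923239 (Oasl1, plus strand) and chr2:157135097-157135346 (Samhd1, minus strand).

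In Isg15 there were 3 overlapping matches beginning at positions −78, −72 and −66, counted in gene direction with the first transcribed base as 0, so that the repeats ran into each other. The 2 matches of Ifit3 and those of Ifit3b were the same letters in the same surroundings, which began at −156 and −122 in Ifit3 and at −188 and −154 in Ifit3b. Gbp3 had 2 overlapping matches close to its start site, beginning at −45 and −39, and Rsad2 had 1, at −120. Over the 29 matches of all members, the median first base was −53, and 25 began within the 200 bases before the start. In Ifitm3, in Eif2ak2 and in the second window of Trim30a the matches lay behind the start site. The 17 members with the letters had a median log2 fold change of 2.03 in 4T1–HM and 3.37 in 4T1–LM, and the 21 without them, which include Ifitm1 and Epsti1, had 0.89 and 1.92. In 4T1–HM 14 of the 17 with them were higher, and 9 of the 19 expressed members without them. In 4T1–LM the counts were 16 of 17 and 17 of 19. Oasl2, Cmpk2, Xaf1 and Ifi44, whose windows are not printed, rose at least 8-fold in 4T1–LM without the letters. The highest rise was 3.29 for Rsad2 with the letters and 3.28 for Oasl1 without them in 4T1–HM, and 5.54 for Ifit3 and 4.37 for Oasl1 in 4T1–LM. A match of letters is a description of the window and not a measured binding site, and no match says nothing about sites elsewhere.

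**Figure D2:**
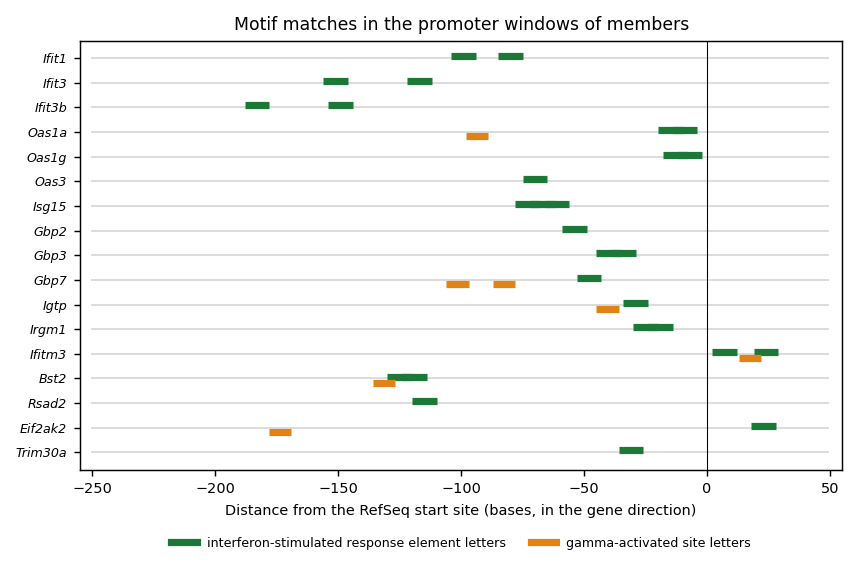
Position of the letter matches in promoter windows of the 17 members that hold the ISRE letters. Distances are in bases from the RefSeq start site, in gene direction. Green bars are ISRE letters and orange bars gamma-activated site letters. For members with several windows only the first window with a match is drawn, so that the match in the other window of Trim30a is left out. Most green bars lie within 200 bases before the start, those of Ifit3b beginning at −188 and −154 and those of Isg15 at −78, −72 and −66.

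The IFIT proteins bind viral RNA through tetratricopeptide repeats and block its translation. All 4 measured members lie in a row on chromosome 19 (mm10, from 34550694 to 34650009), and of all role groups they had the largest median rise in both clones, 2.57 in 4T1–HM and 4.85 in 4T1–LM on the log2 scale. Ifit3 had an FPKM of 1.13 in HM_Ctrl, 0.474 in LM_Ctrl, 13.2 in HM_DFX and 67.6 in LM_DFX. It was thus lowest in LM_Ctrl and highest in LM_DFX, a ratio of 143 (83.3 to 268) in 4T1–LM compared with 11.7 (8.14 to 17.2) in 4T1–HM. Its log2 fold change of 5.54 ranked second among all expressed genes in 4T1–LM. Ifit3b, its near copy, went from 1.07 to 15.1 in 4T1–HM and from 0.222 to 40.5 in 4T1–LM. These 2 genes share much of their sequence, since 61.8% of the 31-base words of Ifit3 and 55.2% of those of Ifit3b occur in another gene, so that the authors' counting may have split fragments between them. Ifit1, which recognizes the 5′ end of foreign RNA and had the highest FPKM of the group in the DFX libraries, was measured at 5.55 in HM_Ctrl, 2.30 in LM_Ctrl, 34.0 in HM_DFX and 80.4 in LM_DFX. Ifit2 departed from its neighbors in 4T1–HM. Its FPKM was 4.15 in HM_Ctrl and 5.53 in HM_DFX, a log2 difference of 0.34 that did not reach 2-fold, but 5.99 in LM_Ctrl and 36.7 in LM_DFX, where the log2 fold change was 2.43.

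The oligoadenylate synthetases detect double-stranded RNA, and the second messenger they make activates RNase L, which degrades RNA. The 6 members lie in a pair of groups on chromosome 5. All 6 were higher in 4T1–LM and 5 in 4T1–HM. Oasl1, a family member that lacks the enzymatic activity, was the most abundant in the DFX libraries, with an FPKM of 7.81 in HM_Ctrl, 3.44 in LM_Ctrl, 84.6 in HM_DFX and 90.4 in LM_DFX. Its level with DFX was nearly the same in both clones, at a ratio of HM_DFX to LM_DFX of 0.935 (0.894 to 0.978), which set it apart from most members. Oasl2, next to it, reached 32.1 in HM_DFX and 56.8 in LM_DFX from 4.84 and 2.36. Oas1a and Oas1g showed a wider gap between the clones with DFX. Oas1a was at 19.0 in HM_DFX and 61.7 in LM_DFX, and Oas1g at 4.76 and 23.9, although these 2 genes share 68.8% and 55.1% of their 31-base words with other genes, mostly with each other. Oas3 rose from 0.743 to 6.28 and from 0.396 to 10.6. Oas2 was close to absent in the controls, with 3 fragments in HM_Ctrl and 2 in LM_Ctrl, and had 69 in HM_DFX and 759 in LM_DFX. The ratio was 26.8 (8.80 to 133) in 4T1–HM and 273 (75.3 to 2257) in 4T1–LM, yet the log2 fold change of Oas2 in 4T1–HM fell just under the 2-fold threshold because its FPKM in HM_DFX was only 1.08.

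ISG15 is a small ubiquitin-like protein that interferon places on many other proteins. Its gene Isg15 was, after Ifitm3, the most abundant member in the DFX libraries, with an FPKM of 24.6 in HM_Ctrl, 16.1 in LM_Ctrl, 217 in HM_DFX and 284 in LM_DFX. Both clones reached a high level, the rise being 8.82-fold (7.83 to 9.95) in 4T1–HM and 17.6-fold (15.2 to 20.4) in 4T1–LM. Usp18, the protease that removes ISG15 and also restrains the interferon receptor, went from 0.535 to 12.9 in 4T1–HM and from 0.159 to 41.2 in 4T1–LM. Trim25, a ubiquitin ligase that activates the RNA sensor RIG-I, rose in both clones, from 21.8 to 73.2 and from 19.5 to 102. Herc6, the mouse ligase for ISG15, was higher by a log2 fold change of 1.76 in 4T1–LM and by 0.92, short of the threshold, in 4T1–HM. Uba7 is the activating enzyme of the same chain. Its FPKM was 1.04 in HM_Ctrl, 1.49 in LM_Ctrl, 0.791 in HM_DFX and 3.72 in LM_DFX, and neither clone reached 2-fold on the scale used, with log2 differences of −0.18 and 0.92, while the ratio without a pseudocount was 0.764 (0.564 to 1.03) in 4T1–HM and 2.495 (2.09 to 3.00) in 4T1–LM.

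The GTPases include the dynamin-like Mx proteins, which trap viral ribonucleoproteins, the guanylate-binding proteins (Gbp) and the immunity-related GTPases, which act on vacuoles that hold pathogens. All 9 were higher in 4T1–LM and 6 in 4T1–HM. Gbp3 was the most abundant in the DFX libraries, at 2.14 in HM_Ctrl, 2.63 in LM_Ctrl, 28.5 in HM_DFX and 55.2 in LM_DFX, a rise of 13.3-fold (11.0 to 16.2) and 21.002-fold (17.7 to 25.1). Gbp2 and Gbp7, its neighbors on chromosome 3, rose as well. Gbp2 started at 4.84 in HM_Ctrl and at 9.93 in LM_Ctrl and reached 18.3 and 50.6 with DFX. Mx2, which the annotation lists as a polymorphic pseudogene, went from 0.363 to 10.9 in 4T1–HM and from 0.106 to 21.8 in 4T1–LM. Mx1 had 6 fragments in HM_Ctrl, 1 in LM_Ctrl, 57 in HM_DFX and 400 in LM_DFX, which makes its ratio of 288 (51.3 to 11386) in 4T1–LM imprecise. Of the immunity-related GTPases, Irgm1 and Igtp were higher in both clones. Igtp reached 13.0 in HM_DFX and 39.4 in LM_DFX from 2.42 and 1.73, and Irgm1 reached 15.9 and 27.5 from 3.26 and 4.15. Iigp1 and Ifi47 passed 2-fold in 4T1–LM only, with log2 fold changes of 2.43 and 1.68 there and 0.85 and 0.89 in 4T1–HM. For Ifi47 this scale hides much of the change in 4T1–HM, where it had 15 fragments in HM_Ctrl and 54 in HM_DFX, a ratio of 4.20 (2.33 to 8.01), compared with 3.99 (3.25 to 4.93) in 4T1–LM.

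The membrane restriction factors block entry or release of viruses. Ifitm3, which stops viral fusion in endosomes, was the most abundant member in every library. Its FPKM was 304 in HM_Ctrl, 312 in LM_Ctrl, 288 in HM_DFX and 554 in LM_DFX, so that 3 libraries lay close together and LM_DFX above them, with log2 differences of −0.081 in 4T1–HM (0.0549 with median-ratio scaling) and 0.82 in 4T1–LM that did not reach 2-fold. Of its 31-base words, 20.5% occur in another gene. Bst2 (tetherin), which holds budding virus at the cell surface, was at 42.7 in HM_Ctrl, 30.2 in LM_Ctrl, 77.3 in HM_DFX and 174 in LM_DFX. It was higher in 4T1–LM, with a log2 fold change of 2.49, and stayed under 2-fold in 4T1–HM at 0.84. Ifitm1 had at most 5 fragments in a library, with 0 in HM_Ctrl, 2 in LM_Ctrl and 3 in LM_DFX.

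The enzymes that act on nucleotides and RNA split into 2 kinds of response. Rsad2 (viperin), which makes a chain-terminating nucleotide, had the largest log2 rise of the members in 4T1–HM, 3.29, and 4.29 in 4T1–LM. It had an FPKM of 0.993 in HM_Ctrl, 0.323 in LM_Ctrl, 18.5 in HM_DFX and 24.8 in LM_DFX. Cmpk2, a mitochondrial nucleotide kinase encoded next to Rsad2 on chromosome 12, went from 1.53 to 13.7 and from 0.576 to 26.3. The other 3 were already expressed at an FPKM above 10 in both controls and moved less. Eif2ak2 (PKR), the kinase that stops translation when it binds double-stranded RNA, and Adar, which edits adenosines in such RNA, were higher in 4T1–LM, at log2 fold changes of 1.46 and 1.31, and under 2-fold in 4T1–HM, at 0.70 and 0.89. Samhd1, which breaks down deoxynucleotides, had 11.3 in HM_Ctrl, 15.7 in LM_Ctrl, 5.57 in HM_DFX and 13.4 in LM_DFX. It was the only expressed member whose FPKM ratio had an interval wholly below 1 in both clones, with 0.494 (0.453 to 0.539) in 4T1–HM and 0.853 (0.806 to 0.903) in 4T1–LM, although its log2 difference in 4T1–HM, −0.90, did not pass the threshold.

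Parp9 and Dtx3l encode a complex that attaches ADP-ribose and ubiquitin, and Parp14 and Parp12 are ADP-ribosyltransferases. Parp14, Dtx3l and Parp9 lie side by side on chromosome 16 and were higher in both clones. Dtx3l was at 7.37 in HM_Ctrl, 8.42 in LM_Ctrl, 19.95 in HM_DFX and 50.8 in LM_DFX. Dtx3l and Parp9 overlap at their starts on opposite strands, over 8% of the exon bases of Dtx3l, and whether the authors' counting used the strand is not given in the sources used here. Parp14 had the larger log2 fold changes, 2.00 and 3.14. Parp12, which lies on chromosome 6, was higher in 4T1–LM by 1.13 and differed by 0.50 in 4T1–HM.

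The remaining 13 members have other or less settled roles. Among them Ifi27, a protein of the mitochondrial membrane, was most abundant, with an FPKM of 50.8 in HM_Ctrl, 37.2 in LM_Ctrl, 139.5 in HM_DFX and 188 in LM_DFX. Rtp4, a chaperone of receptors that also binds RNA, had a log2 fold change of 2.499 in 4T1–HM and 4.05 in 4T1–LM, and Xaf1, a proapoptotic protein, had 2.46 and 3.43. Ifi44 showed one of the widest gaps between the clones. It was at 0.536 in HM_Ctrl, 0.156 in LM_Ctrl, 4.43 in HM_DFX and 20.1 in LM_DFX, a rise of 8.27-fold (6.22 to 11.2) against 129-fold (78.3 to 231). Tor3a, an ATPase of the endoplasmic reticulum, went from 13.4 to 47.8 and from 11.7 to 128. Trim30a, Phf11d and Samd9l were also higher in both clones, with log2 fold changes from 1.23 to 1.53 in 4T1–HM and from 2.01 to 3.35 in 4T1–LM. Sp100, a component of nuclear bodies, Ifi35 and Lgals3bp, a secreted glycoprotein, were higher in 4T1–LM, with log2 fold changes from 1.51 to 1.92, and stayed between 0.39 and 0.73 in 4T1–HM. Ifi27l2a had 3 fragments in HM_Ctrl, 15 in LM_Ctrl, 2 in HM_DFX and 19 in LM_DFX and did not differ between DFX and control beyond counting error in either clone. Epsti1 was at an FPKM of 0.928 in HM_Ctrl, 0.384 in LM_Ctrl, 0.270 in HM_DFX and 0.434 in LM_DFX.

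In all, on the FPKM + 1 scale, 30 expressed members were higher in both clones, compared with 3.46% of all expressed genes, 13 were higher in 4T1–LM without reaching 2-fold in 4T1–HM, and 4 (Uba7, Ifitm3, Samhd1 and Ifi27l2a) were higher in neither. With a pseudocount of 0.1, 36 members were higher in 4T1–HM and 44 in 4T1–LM. Among the 13, Oas2 (26.8), Mx1 (11.1), Ifi47 (4.20), Herc6 (2.53) and Sp100 (2.28) had FPKM ratios above 2 in 4T1–HM. The others of the 13 with a ratio stayed under 2. On the FPKM + 1 scale the log2 fold change was larger in 4T1–LM for 47 of 47 members, and for 56.5% of all expressed genes. Without a pseudocount, Ifi47 had the larger ratio in 4T1–HM, 4.20 (2.33 to 8.01) against 3.99 (3.25 to 4.93), with overlapping intervals. The difference of the log2 fold change between the clones reached 2-fold for 27 members, always with the larger rise in 4T1–LM. Among the 38 members that reached an FPKM of 1 in a control library, it did so for 20. Of the 12083 such genes, 629 had a log2 fold change lower in 4T1–HM by that much. Of all expressed genes, 5.38% had a log2 fold change lower in 4T1–HM by that much, whether they rose or fell. For 3.52% of all genes and 0 members it was higher in 4T1–HM by that much. The widest differences were those of Ifit3, at −2.81 (4T1–HM minus 4T1–LM), Ifi44 at −2.37 and Ifit1 at −2.21. Apart from Ifi27l2a, the narrowest were those of Adar, at −0.42, and of Samd9l and Irgm1, at −0.48 each. With 1 library per condition this difference could not be tested.

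**Figure D3:**
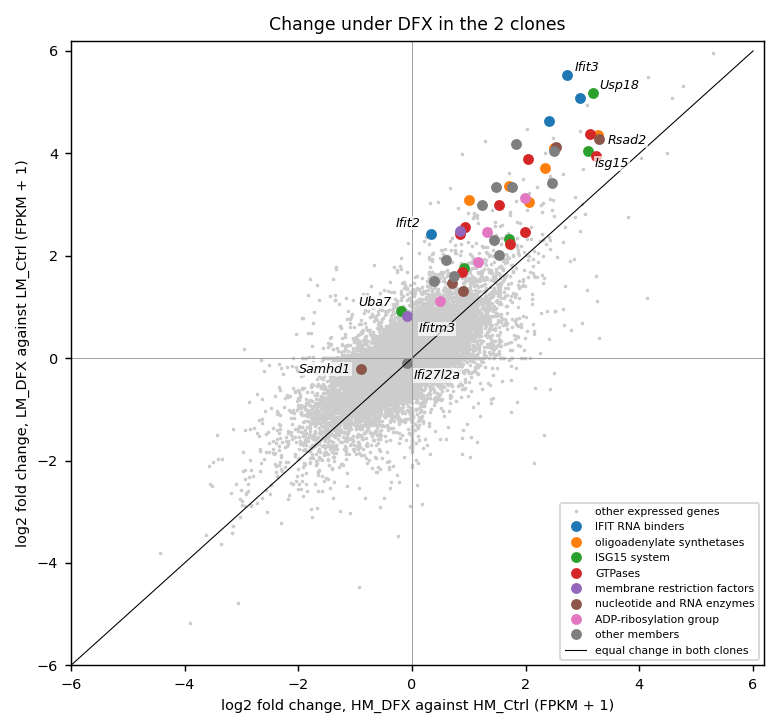
Log2 fold change under DFX (FPKM + 1) of each expressed gene in 4T1–HM (horizontal axis) and 4T1–LM (vertical axis); large points are the 47 expressed members colored by role, small grey points are the other expressed genes, and the diagonal marks an equal change. All members lie above the diagonal, Ifi27l2a by under 0.01, with Ifit3 at 2.73 and 5.54 and Samhd1 in the lower left at −0.90 and −0.21.

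The clones were then compared directly, without and with DFX. These comparisons use the same libraries as those above. Between HM_Ctrl and LM_Ctrl, 0 members were higher and 2 were lower in 4T1–HM, compared with 3.65% and 3.15% of all expressed genes. Those 2 were Ifi47, at 0.362 FPKM in 4T1–HM and 2.85 in 4T1–LM, and Ifi27l2a, with 0.387 and 2.06. Among the IFIT genes 3 of 4, and among the OAS genes 4 of 6, leaned the other way without reaching 2-fold on the FPKM + 1 scale. The rest of these 2 families, Ifit2, Oas1a and Oas1g, lay lower in HM_Ctrl than in LM_Ctrl. Ifit1 had a ratio of HM_Ctrl to LM_Ctrl of 2.42 (1.90 to 3.09), Oasl1 one of 2.27 (1.86 to 2.78) and Ifit3b one of 4.83 (2.12 to 12.9). With a pseudocount of 0.1, 11 members were higher and 4 were lower in HM_Ctrl, so that the untreated comparison depends on how low values are treated.

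With DFX the order was the same for every expressed member. All 47 had a lower FPKM in HM_DFX than in LM_DFX, as did 54.2% of all expressed genes, and the interval of the ratio lay below 1 for all 46 members with recovered fragments. On the log2 scale 27 were lower by at least 2-fold and 0 were higher, against 5.05% and 3.31% of all genes. Among the 38 members that reached an FPKM of 1 in a control library, 21 were lower, against 583 of the 12083 such genes. The median log2 difference of the 47 was −1.14. Ifit2 differed most, at −2.53, followed by Ifi47 at −2.30, Ifit3 at −2.27, Oas1g at −2.11, Oas2 at −2.08 and Sp100 at −2.02, then by Ifi44 at −1.96, Phf11d at −1.88, Lgals3bp at −1.76 and Iigp1 at −1.67. At the other end stood Oasl1 at −0.10, Adar at −0.35, Isg15 at −0.38, Rsad2 at −0.41 and Ifi27 at −0.43. Members that lay higher in HM_Ctrl than in LM_Ctrl, such as Ifit3 and Ifi44, thus lay lower in HM_DFX than in LM_DFX.

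**Figure D4:**
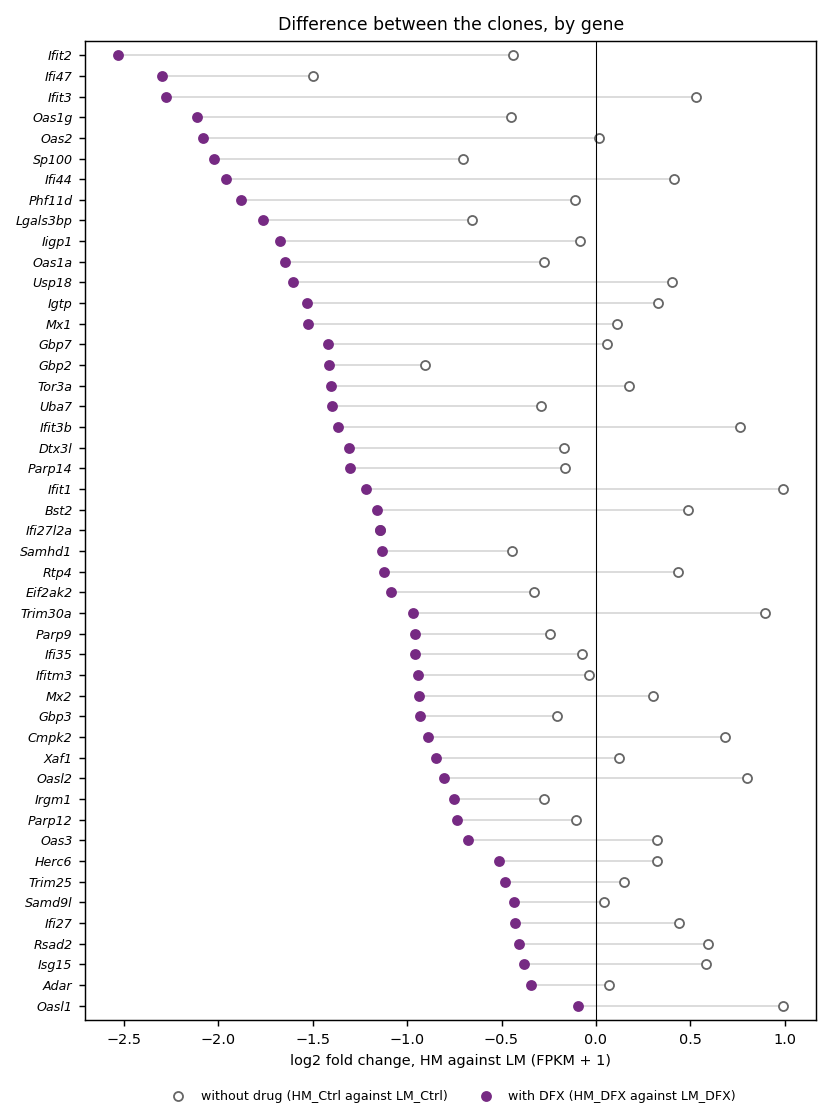
Log2 difference between the clones (4T1–HM against 4T1–LM, FPKM + 1) for the 47 expressed members; open circles compare the control libraries and filled circles the DFX libraries, sorted by the latter, and the line at 0 marks equal levels. The filled circles run from −2.53 for Ifit2 to −0.10 for Oasl1, all left of 0, while the open circles lie on both sides of it, and for Ifi27l2a both circles coincide at −1.14.

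The other genes of the pathway were examined as a list of 45, which holds ligands, receptors, signaling proteins, feedback inhibitors and sensors. Of these 32 were expressed. In 4T1–HM 10 were higher and 4 lower with DFX, and in 4T1–LM 10 were higher and 1 lower. Without drug, 0 were higher and 1 was lower in HM_Ctrl than in LM_Ctrl, and between the DFX libraries 0 were higher and 9 were lower in HM_DFX. The shares of all expressed genes given for the same comparisons apply here too. With 12.4% of all genes lower in 4T1–HM and 8.72% in 4T1–LM, the 4 and the 1 that were lower are near or under the background.

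Among the ligands Ifnb1, which encodes interferon beta (chromosome 4 from 88522025 to 88522774, mm10), was the only one expressed. It had 0 fragments in HM_Ctrl, 1 in LM_Ctrl, 37 in HM_DFX and 60 in LM_DFX, at an FPKM of 0, 0.0848, 3.43 and 3.66. It was near or at 0 in both controls and present in both DFX libraries. Set against a floor of 3 fragments, since none were seen in HM_Ctrl, it was at least 14.4-fold higher in HM_DFX (the exact interval of the ratio begins at 11.1), and the ratio in 4T1–LM was 43.1 (7.45 to 1732). Between the clones with DFX the ratio of HM_DFX to LM_DFX was 0.940 (0.606 to 1.44) for Ifnb1. Most members had a ratio below this range, while Oasl1 and Isg15 were among those within it. Of the other ligands, Ifng was listed at an FPKM of 0.0379 in LM_DFX and at 0 elsewhere, and 12 of the 14 ligands (8 interferon alpha genes, Ifne, Ifnk, Ifnl2 and Ifnl3) were at 0 in every library. The receptor genes Ifnar1 and Ifnar2 were expressed throughout, from 11.3 to 14.3 and from 4.79 to 8.80, and changed by less than 2-fold. Ifngr2, a chain of the interferon gamma receptor, was higher in 4T1–HM, with a log2 fold change of 1.19, and 0.89 in 4T1–LM. Ifnlr1 and Il10rb, also on the receptor list, were lower in HM_DFX than in LM_DFX, with log2 differences of −1.19 and −1.12.

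Downstream, Stat2 and Irf9, which encode parts of the ISRE-binding complex, were higher with DFX in both clones. Stat2 reached 33.4 in HM_DFX and 47.3 in LM_DFX from 7.67 and 4.45, and Irf9 reached 16.5 and 24.8 from 4.31 and 2.56. Irf7, the amplifier of interferon production, rose from 1.82 to 14.8 and from 1.06 to 39.8. Irf1 was higher in both clones, by 2.10-fold (1.94 to 2.27) and 2.55-fold (2.40 to 2.71). Jak2, the kinase of the interferon gamma receptor, was lower in 4T1–HM, at −1.29, and differed by −0.72 in 4T1–LM. Ptpn6, a phosphatase that dampens JAK signaling, was lower with DFX in both clones, from 5.58 to 1.12 in 4T1–HM and from 19.8 to 8.64 in 4T1–LM, and it was the one pathway gene that was lower in HM_Ctrl than in LM_Ctrl.

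The cytosolic RNA sensors Ddx58 (RIG-I), Ifih1 (MDA5) and their relative Dhx58 (LGP2) were higher in both clones, as was Zbp1, a sensor of Z-form nucleic acid. Ddx58 was at 7.41 in HM_Ctrl, 6.59 in LM_Ctrl, 40.2 in HM_DFX and 54.1 in LM_DFX. Tlr3, the endosomal receptor for double-stranded RNA, was higher in 4T1–LM, with a log2 fold change of 1.64, and stayed at 0.30 in 4T1–HM. Among the genes for proteins that pass on the signal, Mavs, Tbk1 and Ikbke did not reach 2-fold in either clone. Tmem173 (STING) and Irf3, the factor that turns on Ifnb1, were lower in 4T1–HM, with log2 fold changes of −1.28 and −1.15, and differed by −0.42 and −0.71 in 4T1–LM. Many sensors, Stat2, Irf9 and Irf7 are themselves known interferon targets.

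**Figure D5:**
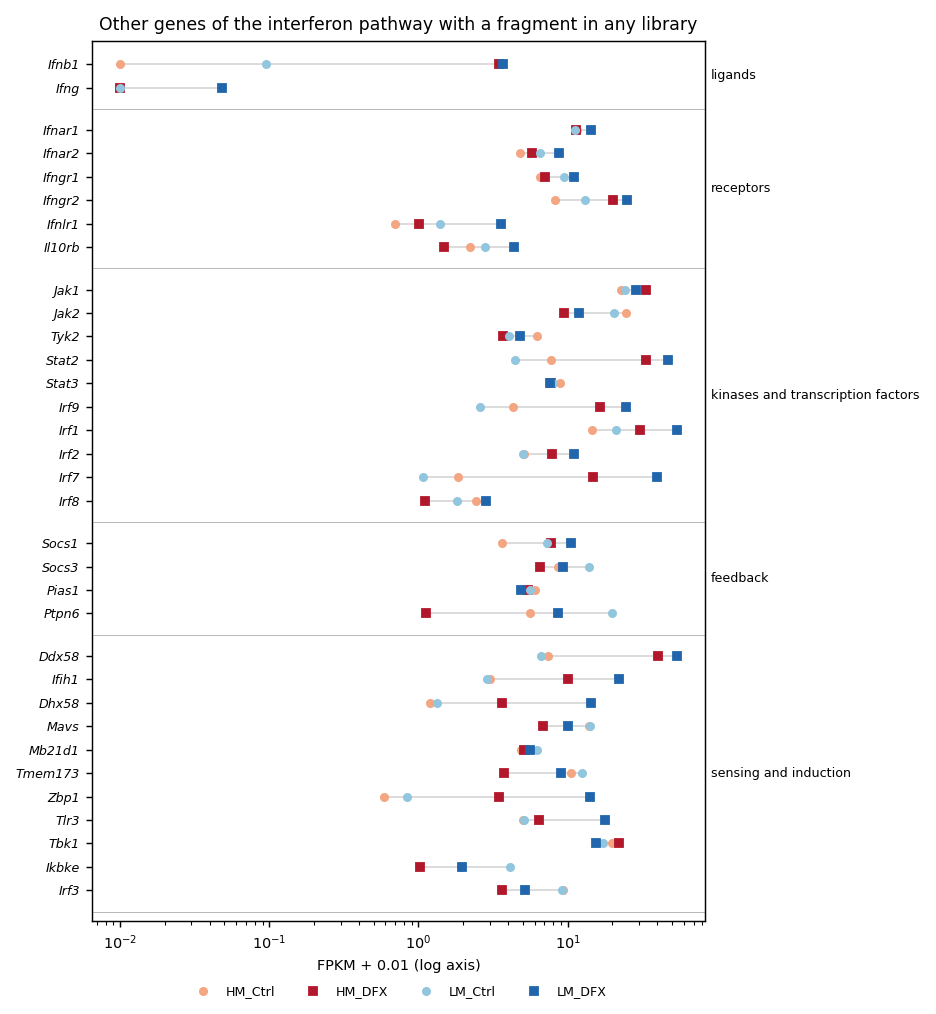
FPKM of the pathway genes with a value above 0 in any of the 4 libraries, grouped by role, on a log axis after adding 0.01 (so that a value of 0 sits at 0.01); symbols are as in the plot of the members, and each point is 1 library. Ifnb1 lies at 3.43 in HM_DFX and 3.66 in LM_DFX, and Irf7 at 14.8 and 39.8.

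The cells' identity was checked with markers. Epcam, Cdh1 and the keratins Krt8, Krt14, Krt18 and Krt19 were expressed and Krt5 was at 0, and the summed FPKM of the 7 epithelial markers was 1590 in HM_Ctrl, 2123 in LM_Ctrl, 533 in HM_DFX and 1035 in LM_DFX. Of the 6 expressed, 4 were lower and 0 higher with DFX in 4T1–HM. In 4T1–LM 2 were lower and 1, Krt19, was higher, at 46.4 in LM_Ctrl and 103 in LM_DFX. The shares of all expressed genes given for these comparisons apply here too. Markers of other cells that make or answer interferon were at or near 0. The 5 leukocyte markers summed to between 0.0399 and 0.183 FPKM, with Cd3e and Adgre1 at 0 in every library, and the 3 endothelial markers to between 0.0102 and 0.188. Of the 4 fibroblast markers only Pdgfra was expressed, the list summing to 3.21 in HM_Ctrl, 2.77 in LM_Ctrl, 4.61 in HM_DFX and 5.50 in LM_DFX. The part of the fall in the summed epithelial markers in the results was not tested. In bulk RNA, more RNA per cell and more responding cells cannot be told apart.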

How the data were processed

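RNA-seq libraries of 4T1–HM and 4T1–LM cells, 1 for each of 4 conditions, were assigned by their labels. According to the methods and the submitters' processing notes, the authors made directional poly(A) libraries, ran FastQC and Trimmomatic, aligned the read pairs to mm10 with HISAT2 and counted with featureCounts. Versions and the strand setting are not given in the sources used here. The deposited FPKM of 49585 genes are scaled by the authors for gene length and library total, and were neither filtered nor pooled.

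From these, log2 ratios of FPKM + 1 were computed for genes that reached an FPKM of 1 in any library, and 2-fold changes were called with Python 3.11.15, pandas 2.3.3 and scipy 1.17.1. FPKM are not counts and no condition has a replicate, so no test was run. Fragments were recovered with exon lengths of GENCODE M21: coordinates matched for 45125 genes, and 17660 of 18235 (96.8%) came out whole within 0.02 in all 4 libraries. Totals were 16745608 in HM_Ctrl, 15731521 in LM_Ctrl, 14363067 in HM_DFX and 21883854 in LM_DFX. For Mx1, Cmpk2, Rsad2 and Dtx3l the length was solved from the values. Iigp1, Epsti1 and Ifng have no unique solution and no fragments are given. The recovery was tested on simulated data. Genes with over 20% of 31-base words in another gene (5 members) are named as uncertain.

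The members and the lists were chosen with earlier results of these data known. Named genes followed a rule, by which every member was accounted for. Values were given for the most abundant of each role group, the 10 largest changes of each comparison and those under an FPKM of 1. Of the pathway genes, the rule named Ifnar1, Ifnar2, Ifnb1, Stat2, Irf9, Irf1, Irf7 and those past 2-fold. A pathway gene and a marker are not reported here and were left out of the lists and their counts. Tried as alternatives were protein-coding genes only, a 4-fold or 1.5-fold threshold, scaling by median ratios or by the 75th percentile, a pseudocount of 0.1, a filter on the mean FPKM (at least 1), no filter, and leaving out 10 members with a close paralog. A filter on the control libraries was added after seeing the data.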

Additional observations from a re-analysis of the deposited data

Results flagged for a closer look

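Each of these genes had log2 fold changes of opposite sign under DFX in the 2 clones, each clone being 1 library per condition. The difference was not tested, and all changes stayed under 2-fold on the FPKM + 1 scale. Without a pseudocount, the ratio was 2.495 for Uba7 in 4T1–LM and 0.451 for Irf8 in 4T1–HM. Uba7, the activating enzyme for ISG15, had a log2 fold change of −0.18 in 4T1–HM and 0.92 in 4T1–LM. The interval of its ratio in 4T1–HM includes 1 (0.564 to 1.03). For Ifitm3 the values were −0.081, which became 0.0549 with median-ratio scaling, and 0.82, and its ratio in 4T1–HM, 0.945 (0.899 to 0.993), lay just below 1 in counting error alone. Among the other pathway genes, the interferon receptor chain Ifnar1 had −0.0056 in 4T1–HM, with an interval of its ratio that includes 1 (0.913 to 1.09), and 0.32 in 4T1–LM. Il10rb, a receptor chain for interferon lambda, had −0.37 and 0.50, and the transcription factor Irf8 had −0.71 and 0.44.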

How the results depend on the processing

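No paired analysis was possible because each condition has 1 library and the labels number no replicates. Of 319 values of single members in each comparison under the alternatives, 319 kept their sign in 3 comparisons and 318 in 4T1–HM under DFX, the exception being Ifitm3 with median-ratio scaling (0.0549), and 0 called values changed sign. Most of these signs were fixed beforehand. A filter leaves the value of a gene as it is, and a pseudocount cannot turn its sign. Only scaling by median ratios or to the 75th percentile could have changed one. With a pseudocount of 0.1, the median log2 fold change was 2.26 in 4T1–HM and 3.73 in 4T1–LM, 1 member was lower in 4T1–HM under DFX (Samhd1), and between the controls 11 were higher and 4 lower in 4T1–HM. Scaling to the 75th percentile put 2 members (Ifit1 and Oasl1) higher in HM_Ctrl. At 1.5-fold, 1 member was lower in 4T1–HM under DFX, and 7 were higher and 5 lower between the controls. The log2 fold change was lower in 4T1–HM than in 4T1–LM by that much for 42. At 4-fold, 16 were higher in 4T1–HM under DFX, 0 were lower between the controls, 6 were lower in HM_DFX than in LM_DFX, and the rise was smaller in 4T1–HM for 7. Median-ratio scaling, a filter on the mean FPKM, no filter, protein-coding genes only, leaving out members with a close paralog and the filter on control libraries moved no count of members by over 1.5 times. Depth limits Oas2, Mx1, Ifi27l2a, Ifitm1 and Ifnb1, each with 3 or fewer fragments in a library.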
